A study of Homo sapiens with 18 samples.

Results

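The comparison asked whether an shRNA against KBTBD8 had the same effect in pluripotent human embryonic stem cells as in embryoid bodies made from them. It is the interaction of knockdown with state: the difference KBTBD8 shRNA minus control shRNA in embryoid bodies, minus the same difference in pluripotent cells, on the log2 scale. A positive interaction means that the knockdown difference lay higher in embryoid bodies, and a negative one that it lay higher in pluripotent cells. All arrays came from H1, an established human embryonic stem cell line. Pluripotent cells grew on Matrigel in mTeSR1 medium with no feeder cells. Embryoid bodies, free-floating aggregates of differentiating cells, were made in AggreWell plates and grown for 6 days in APEL medium. In each state cells carried a lentivirus with the control shRNA or with the KBTBD8 shRNA, and untransduced cells are given beside them. The comparison rests on 10 of the 18 arrays of the series: 3 with the control shRNA and 2 with the KBTBD8 shRNA in each state. The labels do not say which hairpin or how many hairpins were used, so an effect of KBTBD8 and an effect of a hairpin on other transcripts cannot be told apart.

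KBTBD8 is a BTB-kelch protein that brings substrates to the CUL3 ubiquitin ligase. In differentiating human embryonic stem cells it is known for ubiquitylating NOLC1 and TCOF1, which connect RNA polymerase I with ribosome modification, and for a need in neural crest specification. The neural crest is an embryonic cell population at the border of neural plate and surface ectoderm. In these aggregates crest, forebrain and surface ectoderm fates can arise side by side, and the bulk arrays cannot tell fewer cells of a type from less RNA per cell.

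Arrays numbered 2 of both KBTBD8 shRNA groups were left out, because each lay with the other state. SIX3, an eye field gene, stood at 10.59 on the array labelled pluripotent and at 5.69 on the array labelled embryoid body. On the arrays that were used, the pluripotency gene PODXL lay between 11.90 and 12.16 in pluripotent cells with either shRNA and between 10.11 and 10.47 in embryoid bodies. PAX6, a neural gene, lay between 4.40 and 4.85 in pluripotent cells and between 9.04 and 9.77 in embryoid bodies. The pluripotency genes DPPA4, ZFP42 and CRIPTO likewise lay lower on all embryoid body arrays used. SOX2 read 10.03 to 10.56 in pluripotent cells and 10.13 to 10.93 in embryoid bodies, and LIN28A 11.30 to 11.46 and 11.46 to 11.65. Neither of these pluripotency genes lay lower in embryoid bodies. By the other genes named here the labelled states held on these 10 arrays. With all 18 arrays kept as labelled, the interaction was called for 521 genes instead of 1402, and 466 genes were called both ways. A gene was called at an adjusted p under 0.05 in limma. The series' text speaks of independent samples without naming separate cultures, so p-values measure the spread between these arrays, which may be technical. The small number of arrays limits the precision of every value.

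KBTBD8 itself had a positive interaction: its level fell in pluripotent cells and lay near background in embryoid bodies with either shRNA. In pluripotent cells it read 6.39, 7.09 and 7.03 with the control shRNA and 5.13 and 4.96 with the KBTBD8 shRNA. Its readings in embryoid bodies were 4.43, 4.79 and 5.04 against 4.86 and 4.66. The groups were apart in pluripotent cells and overlapped in embryoid bodies. There all 5 readings lay below the 40th percentile of their array, the line used here for near background. The knockdown difference was -1.79 ± 0.26 in pluripotent cells (adjusted p 2.8e-04) and 0.01 ± 0.26 in embryoid bodies (adjusted p 0.998), where ± is 1 standard error from the fit. The interaction of 1.80 ± 0.36 (adjusted p 0.00485) is therefore carried by the pluripotent term. The depth of the knockdown in embryoid bodies could not be read from these arrays.

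**Figure D1:**
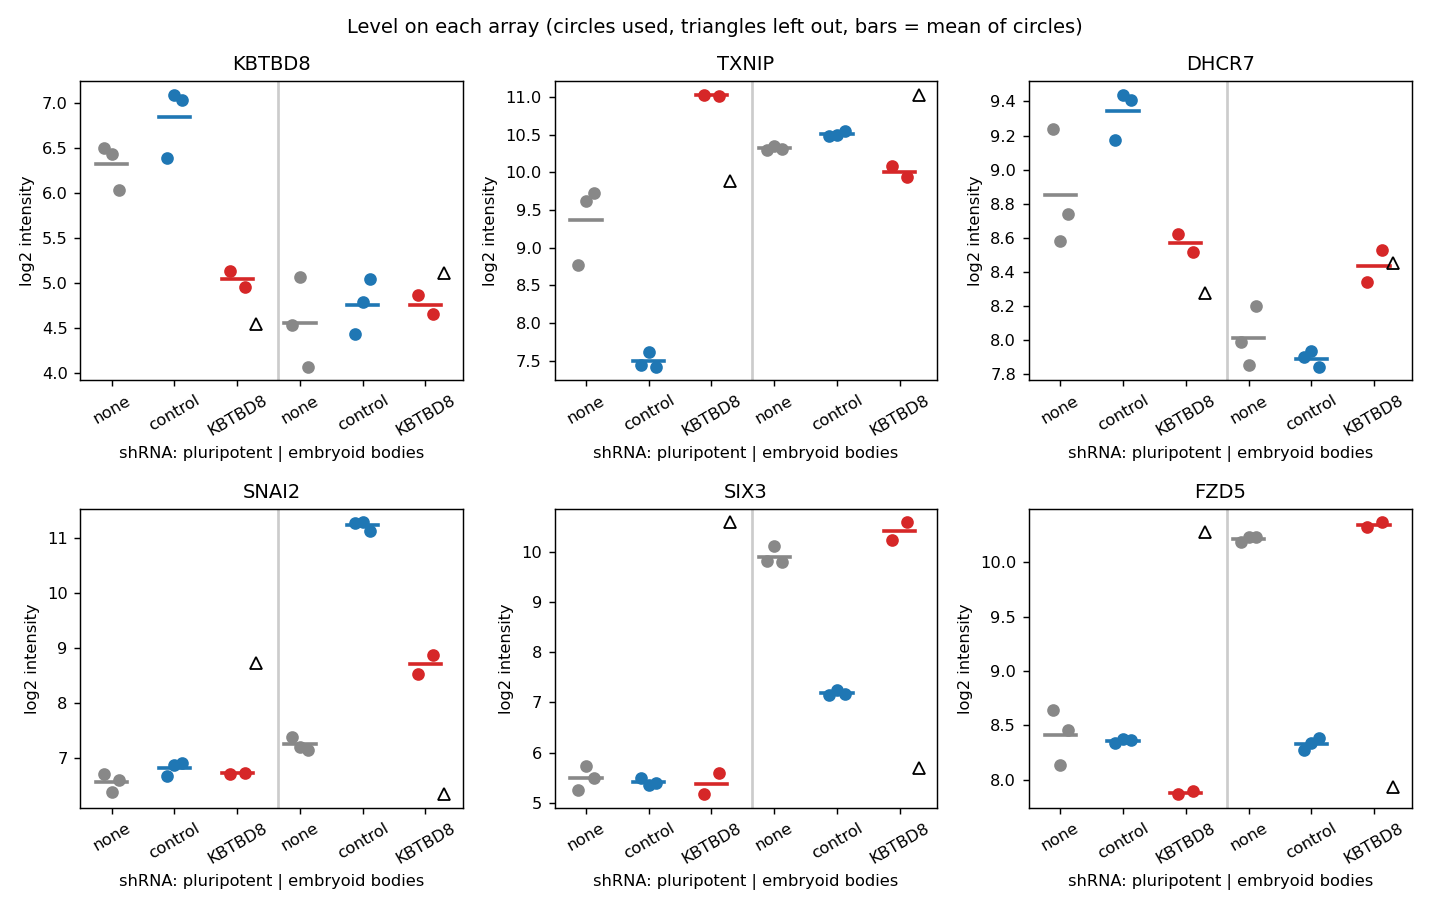
Log2 intensity of 6 genes on each array, for cells with no shRNA, the control shRNA or the KBTBD8 shRNA, pluripotent cells left and embryoid bodies right of the grey line. Circles are the arrays used, bars their means, and open triangles the 2 arrays left out; SIX3 at 10.59 and 5.69 shows these triangles lying with the other state.

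Most genes called for the knockdown were called in 1 state. The interaction was called for 1402 of 14210 genes (9.87%), 532 positive (3.74%) and 870 negative (6.12%). Of these, 84 positive and 203 negative interactions had a size of at least 1 on the log2 scale, a 2-fold difference between the knockdown effects. In pluripotent cells 1198 genes rose (8.43%) and 793 fell (5.58%), and in embryoid bodies 402 rose (2.83%) and 419 fell (2.95%). Only 179 genes changed in both states, 105 in the same direction and 74 in opposite directions. All 74 of the latter had a called interaction, and 17 of the 105 did. Across the 14210 genes the correlation of the knockdown differences was 0.027, a description only, since genes are not replicates.

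The called genes fell into a few patterns. Among negative interactions 540 genes rose in pluripotent cells without a call in embryoid bodies, and 176 fell in embryoid bodies without a call in pluripotent cells. A further 50 rose in pluripotent cells and fell in embryoid bodies, 9 fell in both, and 95 were called in neither knockdown alone. Positive interactions held 241 genes that fell in pluripotent cells without a call in embryoid bodies, and 177 that rose in embryoid bodies without a call in pluripotent cells. Another 24 fell in pluripotent cells and rose in embryoid bodies, 6 rose in both, 2 fell in both, and 82 were called in neither. The larger of both terms was the pluripotent one for 609 of 870 negative and 285 of 532 positive interactions. Of the called genes 103 were near background in 1 state only, and for these the separate terms are given. In pluripotent cells these were 22 with a positive and 39 with a negative interaction, and in embryoid bodies 8 and 34.

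**Figure D2:**
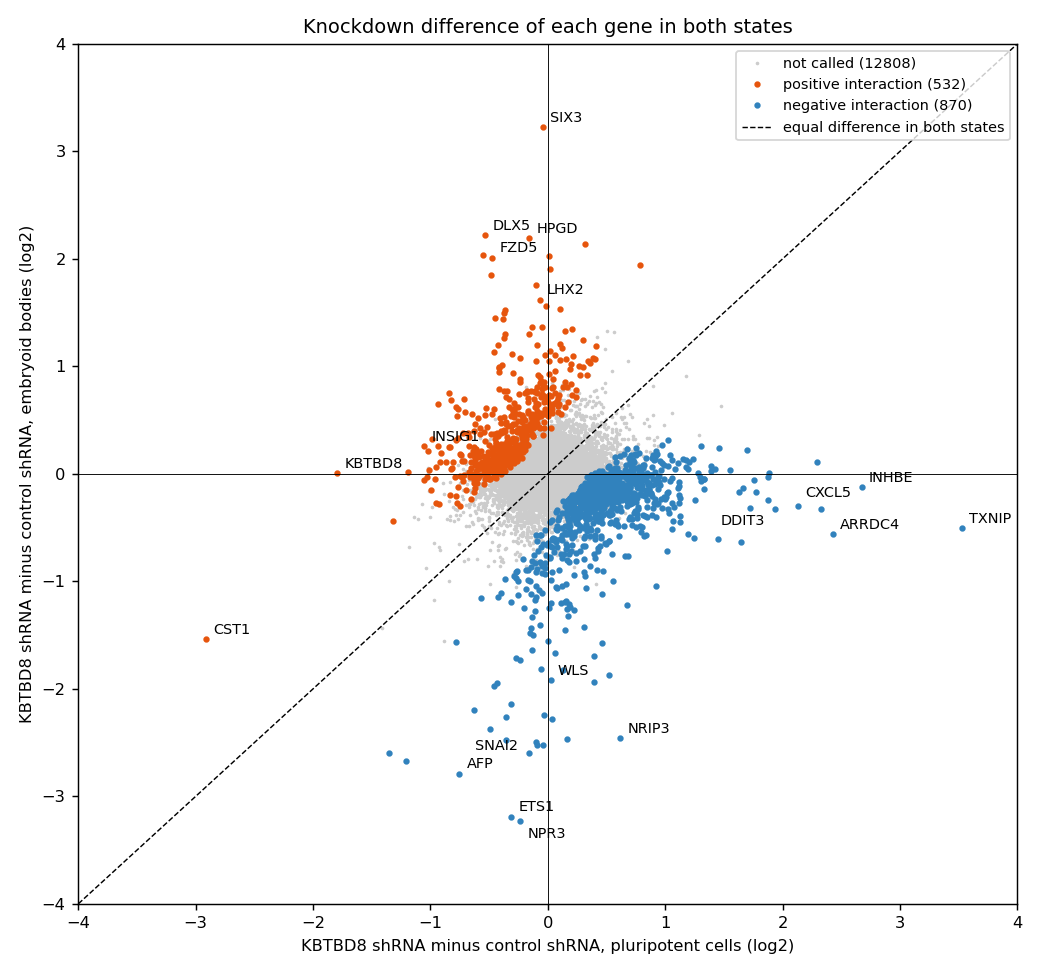
Knockdown difference (KBTBD8 shRNA minus control shRNA, log2) of 14210 genes, pluripotent cells on the horizontal and embryoid bodies on the vertical axis; genes on the dashed line have equal differences. The 870 negative interactions lie along the right and lower axes (TXNIP at 3.53 and -0.50, ETS1 at -0.31 and -3.19) and the 532 positive ones along the upper and left axes (SIX3 at -0.04 and 3.22).

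Read the other way, the same term compares differentiation under the KBTBD8 shRNA with differentiation under the control shRNA. Differentiation changed 48.3% of genes under the control shRNA (23.1% rose and 25.2% fell) and 38.5% under the KBTBD8 shRNA (17.3% and 21.1%). Of the 870 negative interactions, 300 genes rose under the control shRNA and were not called under the KBTBD8 shRNA, 106 rose under both, and 91 rose under the control shRNA and fell under the KBTBD8 shRNA. Among the rest, 229 were not called under the control shRNA and fell under the KBTBD8 shRNA, and 136 fell under both. Of the 532 positive interactions, 177 fell under the control shRNA without a call under the KBTBD8 shRNA, 131 rose only in the calls of the KBTBD8 shRNA, and 96 rose and 90 fell under both. A further 37 fell under the control shRNA and rose under the KBTBD8 shRNA.

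A part of the neural crest genes fell under the KBTBD8 shRNA in embryoid bodies. Of 28 tested members of a neural crest list, 11 had a called interaction, all negative, against 6.12% of all genes. In embryoid bodies 11 members fell and 1 rose, against 2.95% and 2.83% of all genes. In pluripotent cells 3 rose and 3 fell, against 8.43% and 5.58%. The list averaged 7.86 to 7.89 on control shRNA arrays of embryoid bodies and 7.23 to 7.32 on KBTBD8 shRNA arrays. Without an shRNA it averaged 6.30 to 6.37 there, below either shRNA group. The median interaction of the list was -0.125, against 0.017 for all genes, so the list split into members that moved far and members that did not. Besides the genes described next, the called members were PAX3, FOXD3, EDNRB, ERBB3, LMO4 and NGFR, with interactions from -1.52 for PAX3 to -0.69 for NGFR. Not all of the called members fell in embryoid bodies: LMO4 and TFAP2C rose in pluripotent cells with no call in embryoid bodies. With 1 array left out in turn, 10 to 12 members were called, and 6 with all 18 arrays.

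SNAI2, a zinc finger repressor active when crest cells leave the epithelium, read 6.68, 6.87 and 6.91 with the control shRNA and 6.71 and 6.74 with the KBTBD8 shRNA in pluripotent cells. In embryoid bodies the values were 11.28, 11.28 and 11.12 against 8.53 and 8.88. The groups overlapped in pluripotent cells, and in embryoid bodies both KBTBD8 shRNA arrays lay far below every control array while above every pluripotent one. The interaction of SNAI2 was -2.43 ± 0.17 (adjusted p 4.7e-07), made of -0.10 ± 0.12 in pluripotent cells (adjusted p 0.664) and -2.52 ± 0.12 in embryoid bodies (adjusted p 2.6e-09). Untransduced embryoid bodies read 7.38, 7.21 and 7.15, lower than either shRNA group.

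ETS1, an ETS family factor of crest and endothelium, had the largest interaction of the list, -2.87 ± 0.17 (adjusted p 9.5e-08). It read 7.93, 7.96 and 8.16 against 7.58 and 7.83 in pluripotent cells, and 9.31, 9.14 and 9.12 against 6.00 and 6.00 in embryoid bodies. ETS1 thus rose with differentiation by 1.17 under the control shRNA and fell by 1.70 under the KBTBD8 shRNA. Untransduced embryoid bodies averaged 5.12 for ETS1, lower than either shRNA group. SOX10, which maintains crest and glial progenitors, read 8.13, 8.40 and 8.21 against 6.75 and 6.84 in embryoid bodies, and its interaction was -1.60. TFAP2B, an AP-2 factor, was near background in pluripotent cells, with a term of -0.31 that was not called (adjusted p 0.38). Its embryoid body readings of 10.89, 10.76 and 10.72 against 8.35 and 8.96 gave a fall of 2.14 ± 0.21 (adjusted p 7.6e-06). TFAP2C, another AP-2 factor that also marks trophoblast and germ cells, owed its interaction of -1.57 to pluripotent cells. There it rose by 1.12 ± 0.14 (adjusted p 1.1e-04), from 5.64, 5.69 and 5.39 to 6.68 and 6.71, whereas the embryoid body term of -0.45 was not called (adjusted p 0.0846).

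Beyond that list, several of the most negative interactions had the same shape. NR2F1, a nuclear receptor of neural tissue that retinoic acid can induce, read 8.84, 9.26 and 9.21 with the control shRNA and 6.75 and 6.46 with the KBTBD8 shRNA in embryoid bodies. Its pluripotent readings of 5.82, 5.68 and 6.03 overlapped with 5.65 and 5.83, and the interaction was -2.40 ± 0.23 (adjusted p 9.6e-06). NRP2, a receptor for semaphorins found on migrating crest cells, had an interaction of the same size, -2.40, from an embryoid body fall of 1.88. Without an shRNA embryoid bodies averaged 8.99 for NR2F1, near the control shRNA arrays, and 5.77 for NRP2, below either shRNA group. NRIP3 read 8.37, 8.34 and 8.37 against 5.88 and 5.92 in embryoid bodies, and it rose in pluripotent cells by 0.62. The interaction of NRIP3, -3.08 ± 0.23 (adjusted p 6.3e-07), was the second most negative among genes near background in neither state. The brighter of 2 probe sets named KRTAP21-1, a keratin-associated protein gene, had an interaction of -2.33, and the mean of both had -1.42 (adjusted p 0.0016). In pluripotent cells the brighter one lay close to the near-background line, at percentiles 30.7 to 45.2. Its terms were 0.39 there and -1.94 in embryoid bodies. STRA6, a retinol transporter, had one of -1.14. Of 9 tested retinoic acid targets 2 were negative (NR2F1 and STRA6) and 1 positive (CYP26C1), against 6.12% and 3.74% of all genes.

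Of 17 tested targets and feedback genes of the WNT pathway, 7 fell and 2 rose in embryoid bodies, against 2.95% and 2.83% of all genes. In the interaction 7 were negative and 1 positive, against 6.12% and 3.74%. In pluripotent cells 1 rose and 1 fell, against 8.43% and 5.58%. The median interaction was -0.091, and 4 members were called with all 18 arrays. These genes averaged 7.360 to 7.437 on control shRNA arrays of embryoid bodies and 6.865 to 6.916 on KBTBD8 shRNA arrays. Without an shRNA they averaged 6.510 to 6.615 there, below either shRNA group. WLS, which carries WNT ligands to the cell surface, read 11.19, 11.13 and 11.19 with the control shRNA and 9.26 and 9.24 with the KBTBD8 shRNA in embryoid bodies. In pluripotent cells WLS stood at 6.35, 6.54 and 6.62 against 6.39 and 6.66, and its interaction was -1.95 ± 0.18 (adjusted p 6.8e-06). AXIN2, a negative feedback regulator, read 8.74, 8.70 and 8.79 against 7.43 and 7.41 in embryoid bodies, with an interaction of -1.50 ± 0.14 (adjusted p 6.8e-06). AXIN2 rose with differentiation by 1.48 under the control shRNA, while under the KBTBD8 shRNA the difference was -0.02. DACT1, a regulator of dishevelled, had an interaction of -1.45. DKK1, a secreted WNT antagonist, was near background in pluripotent cells, where it still fell by 0.63 ± 0.16 (adjusted p 0.018). In embryoid bodies DKK1 fell by 2.20 ± 0.16 (adjusted p 2.4e-07), from 8.14, 7.90 and 7.91 to 5.79 and 5.78. The positive member was LGR5, an R-spondin receptor, with an interaction of 1.05.

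A part of the eye field and forebrain genes went the other way in embryoid bodies. Of 22 tested members 10 had a positive and 2 a negative interaction, against 3.74% and 6.12% of all genes. In embryoid bodies 9 members rose and 3 fell, in pluripotent cells 3 fell, and the median interaction was 0.365. The called members numbered 6 to 10 in the positive direction with 1 array left out, and with all 18 arrays the positive calls of the list were lost.

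SIX3, a homeobox gene of the eye field, read 7.14, 7.24 and 7.16 with the control shRNA and 10.23 and 10.59 with the KBTBD8 shRNA in embryoid bodies. Its pluripotent readings were 5.50, 5.36 and 5.40 against 5.17 and 5.59. The groups overlapped in pluripotent cells and were more than 2 log2 units apart in embryoid bodies. Its interaction of 3.27 ± 0.21 (adjusted p 2.8e-07) was the highest of all genes near background in neither state. The pluripotent readings still lay close to that line, at percentiles 34.9 to 43.6 of their arrays. The separate terms were -0.04 ± 0.15 in pluripotent cells (adjusted p 0.894) and 3.22 ± 0.15 in embryoid bodies (adjusted p 2.6e-09). Untransduced embryoid bodies read 9.81, 10.11 and 9.79, close to the KBTBD8 shRNA arrays and far above the control shRNA arrays. With all 18 arrays the interaction of SIX3 was -0.04 (adjusted p 0.99).

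LHX2, a LIM homeobox factor of forebrain and eye, read 6.56, 6.92 and 6.72 against 8.28 and 8.43 in embryoid bodies, and 9.83, 9.65 and 9.61 there without an shRNA. Its interaction was 1.69 ± 0.25 (adjusted p 4.3e-04). VAX1, a factor of the ventral forebrain, read 5.26, 5.61 and 5.15 against 6.84 and 6.89, with an interaction of 1.88. In pluripotent cells both lay close to the near-background line, at percentiles 37.3 to 45.2 (LHX2) and 32.7 to 45.0 (VAX1). The pluripotent terms were -0.07 and -0.36, and those in embryoid bodies 1.62 and 1.52. HESX1, a repressor of the anterior forebrain and pituitary, was near background in pluripotent cells, with a term of -0.49 that was not called (adjusted p 0.0902). In embryoid bodies it rose by 1.85 ± 0.18 (adjusted p 6.7e-06), from 4.71, 4.55 and 4.75 to 6.43 and 6.61. FZD5, a WNT receptor of the developing eye, fell in pluripotent cells by 0.48 ± 0.11 (adjusted p 0.00962) and rose in embryoid bodies by 2.01 ± 0.11 (adjusted p 1.4e-08). Its readings were 8.33, 8.38 and 8.36 against 7.86 and 7.90 in pluripotent cells, and 8.27, 8.34 and 8.38 against 10.32 and 10.37 in embryoid bodies. Neither pair of groups overlapped, but FZD5 was picked for a high interaction, which was 2.49 ± 0.16 (adjusted p 2.1e-07). Differentiation changed FZD5 by -0.03 under the control shRNA and by 2.46 under the KBTBD8 shRNA. Untransduced embryoid bodies averaged 10.22 for FZD5, near the KBTBD8 shRNA arrays.

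**Figure D3:**
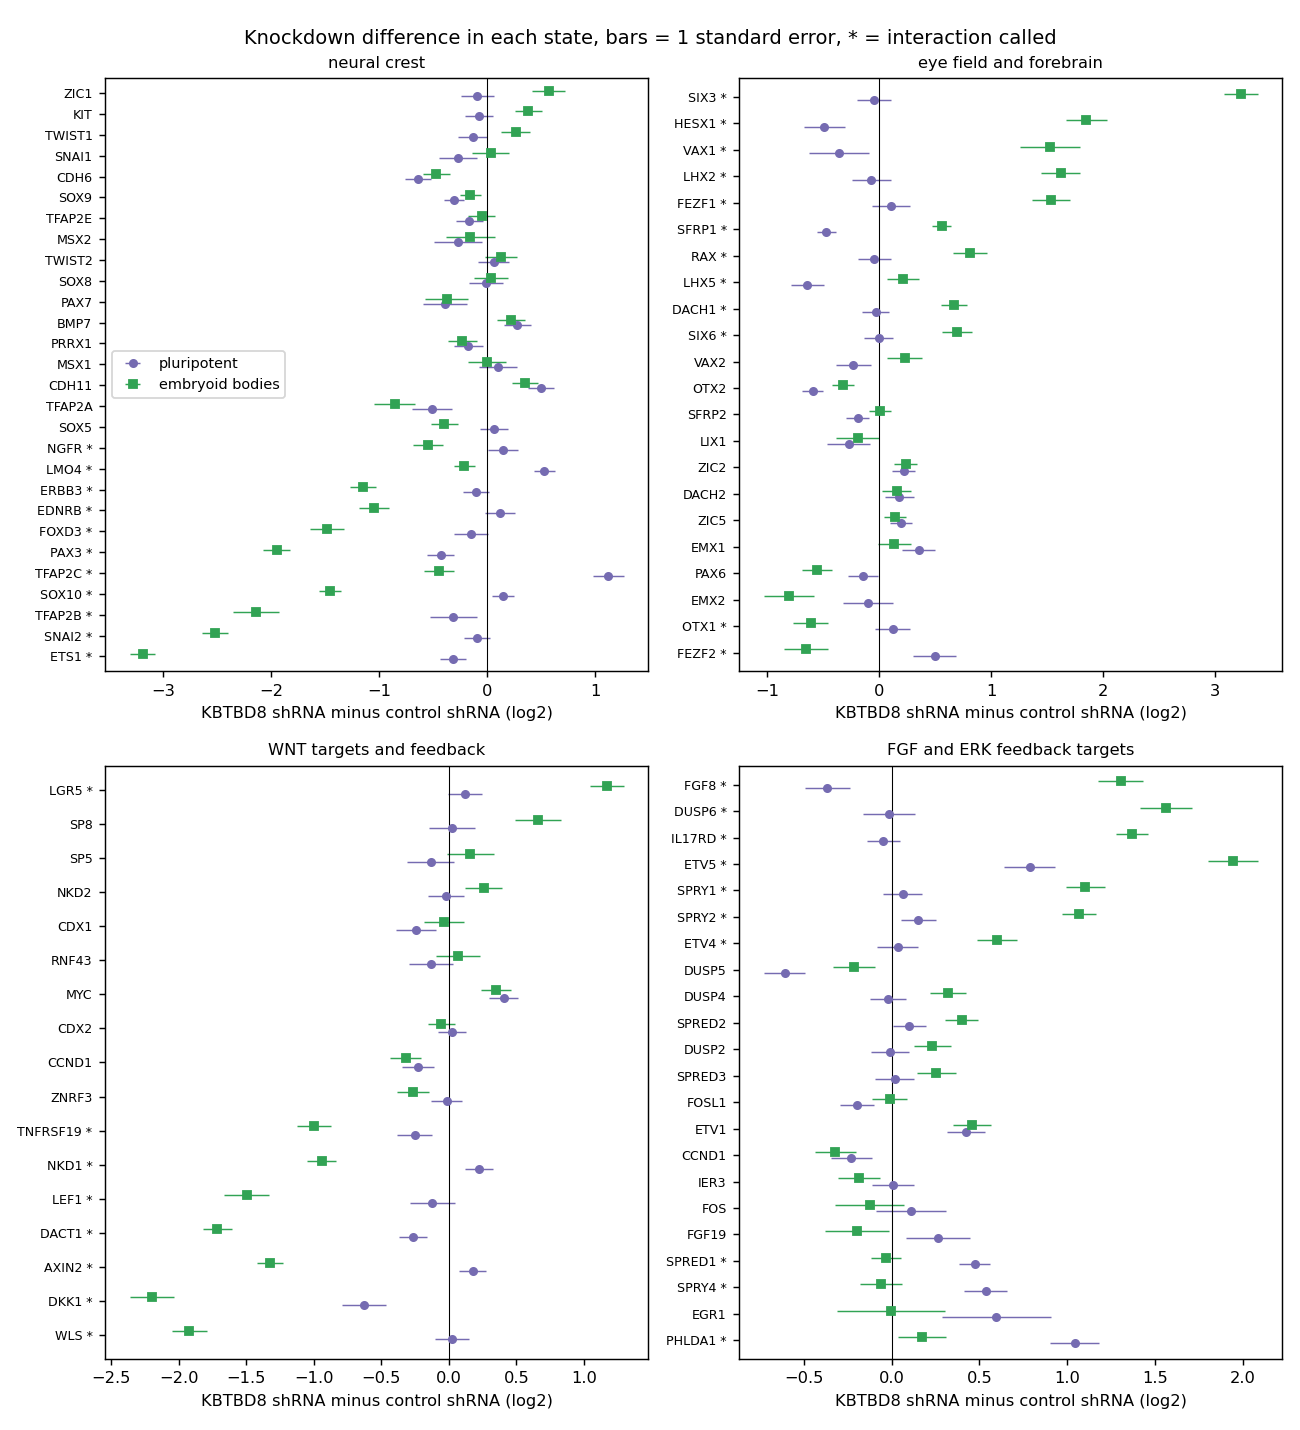
Knockdown difference (log2, horizontal) of every tested member of 4 lists, in pluripotent cells (circles) and embryoid bodies (squares), with bars of 1 standard error and stars on members with a called interaction. The circles lie within 1 unit of 0 except TFAP2C at 1.12 and PHLDA1 at 1.04, while squares reach -3.19 for ETS1, -2.20 for DKK1, 3.22 for SIX3 and 1.94 for ETV5.

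Of 19 tested surface ectoderm and placode genes 10 rose and 1 fell in embryoid bodies, against 2.83% and 2.95% of all genes. In pluripotent cells 2 fell, against 5.58%. In the interaction 9 were called, all positive, against 3.74%, with a median of 0.516. DLX5, a homeobox gene of the preplacodal region and non-neural border, was near background in pluripotent cells, where it fell by 0.53 ± 0.14 (adjusted p 0.0222). In embryoid bodies it rose by 2.22 ± 0.14 (adjusted p 7.2e-08), from 7.95, 7.51 and 7.85 to 9.86 and 10.12. Untransduced embryoid bodies read 6.92, 7.09 and 6.87 for DLX5, so here the KBTBD8 shRNA arrays lay farther from the untransduced ones than the control arrays did. GATA3, a factor of non-neural ectoderm that the trophoblast and BMP lists also hold, read 6.72, 6.78 and 6.37 against 7.60 and 7.62, with an interaction of 1.41 ± 0.20 (adjusted p 3.2e-04). PAX8, an otic placode and kidney factor outside this list, had an interaction of 1.86 from an embryoid body rise of 1.76. With 1 array left out 4 to 8 members of the list were called, and 2 with all 18. The list is not specific to ectoderm. Without an shRNA its mean level was higher in pluripotent cells (7.20 to 7.28) than in embryoid bodies (6.61 to 6.84). On control shRNA arrays it was lower in pluripotent cells (7.35 to 7.41) than in embryoid bodies (7.91 to 7.96). The pluripotency list stood higher on KBTBD8 shRNA arrays of embryoid bodies (7.85 to 7.93) than on control shRNA ones (7.66 to 7.70). Whether that shift contributed to the ectoderm counts was not tested.

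Of 22 feedback targets of FGF and ERK signalling that were tested, 9 rose in embryoid bodies, against 2.83% of all genes. In the interaction 7 were positive and 3 negative, against 3.74% and 6.12%, and the median was 0.238. The 3 negative calls were lost with all 18 arrays, which left 3 positive ones, and also without KBTBD8 shRNA array 1 of embryoid bodies or array 3 of pluripotent cells. In pluripotent cells 5 rose and 1 fell, against 8.43% and 5.58%. FGF8, a ligand of the anterior neural ridge, read 5.39, 5.69 and 5.67 against 6.80 and 6.97 in embryoid bodies. Its interaction was 1.67 ± 0.18 (adjusted p 2.6e-05). Untransduced embryoid bodies averaged 7.37 for FGF8, above either shRNA group and nearer the KBTBD8 shRNA arrays. DUSP6, the phosphatase that switches ERK off, read 6.61, 6.78 and 6.74 against 8.22 and 8.32 in embryoid bodies. Its pluripotent readings of 9.25, 9.48 and 9.48 overlapped with 9.39 and 9.38, and the interaction was 1.58 ± 0.21 (adjusted p 1.8e-04). IL17RD, an FGF antagonist known as SEF, had an interaction of 1.42. ETV5, an ETS factor induced by FGF, rose in both states, by 0.79 in pluripotent cells and by 1.94 in embryoid bodies, with an interaction of 1.16 ± 0.20 (adjusted p 0.00179). PHLDA1, SPRY4 and SPRED1 were the negative members, with pluripotent rises of 1.04, 0.54 and 0.47.

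Among the other highest interactions were SLITRK1, a neuronal membrane protein (2.58), FRZB, a secreted WNT antagonist (1.89), and SEMA6D, a transmembrane semaphorin (1.87). SLITRK1 fell in pluripotent cells by 0.55 and rose in embryoid bodies by 2.03, from 7.79, 7.89 and 7.81 to 9.90 and 9.82. FRZB read 7.95, 7.72 and 8.08 against 9.80 and 9.84 in embryoid bodies, and SEMA6D read 6.86, 6.83 and 6.87 against 8.37 and 8.33. The groups of all 3 genes were apart in embryoid bodies, but the genes were picked for high interactions. The share of all genes so separated was not counted. Without an shRNA embryoid bodies averaged 10.18 for FRZB, near the KBTBD8 shRNA arrays. For SLITRK1 (8.42) and SEMA6D (7.52) they lay nearer the control shRNA arrays. With all 18 arrays FRZB (-0.69) and SEMA6D (-0.05) changed sign.

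Some genes lay near background in pluripotent cells with either shRNA, and for these the embryoid body term is given. Among those that fell, NPR3, the clearance receptor of natriuretic peptides, had the largest fall, 3.23 ± 0.15 (adjusted p 2.6e-09), from 7.57, 7.38 and 7.33 to 3.87 and 4.52. The latter are at the level of the pluripotent arrays, which read between 3.98 and 4.43. SCUBE2, which helps release hedgehog ligands, fell by 2.59, MEF2C, a muscle and crest transcription factor, by 2.52, and ITGA4, an integrin of migrating crest cells, by 2.46. The difference was -2.28 for SCRG1 and -2.26 for RFX4, a factor of the neural tube. MEF2C read 7.36, 7.29 and 7.27 with the control shRNA, 5.0 and 4.57 with the KBTBD8 shRNA and 4.67, 4.79 and 4.53 without an shRNA. For MEF2C, then, the control shRNA group was the one that stood apart. Without an shRNA the embryoid body means of NPR3 (3.77), ITGA4 (5.81) and SCRG1 (6.41) also lay nearer the KBTBD8 shRNA arrays. That of SCUBE2 (6.63) lay nearer the control shRNA arrays.

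Those that rose from near background included HPGD, which degrades prostaglandins, by 2.19 ± 0.22 (adjusted p 7.9e-06). Its readings in embryoid bodies were 3.96, 4.04 and 3.61 against 5.79 and 6.34. ADAM28, a metalloprotease, rose by 2.14, MECOM, a zinc finger transcription factor, by 2.02, and GAD2, a GABA-synthesizing enzyme, by 1.46. ERP27, a protein of the endoplasmic reticulum, fell in pluripotent cells by 0.31 and rose in embryoid bodies by 1.12. ADAM28 read 5.01, 4.93 and 5.08 against 7.18 and 7.12. These groups did not overlap, but the gene was picked for a large change.

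In pluripotent cells the gene with the largest interaction was TXNIP, which binds thioredoxin and restrains glucose uptake. It read 7.44, 7.61 and 7.42 with the control shRNA and 11.03 and 11.02 with the KBTBD8 shRNA. In embryoid bodies TXNIP read 10.48, 10.50 and 10.54 against 10.08 and 9.93. The KBTBD8 shRNA brought the pluripotent level to or above that of embryoid bodies. TXNIP rose by 3.53 ± 0.19 in pluripotent cells (adjusted p 2.9e-08), while the embryoid body term of -0.50 ± 0.19 was not called (adjusted p 0.167), although those groups did not overlap. The interaction was -4.03 ± 0.27 (adjusted p 2.8e-07). Untransduced pluripotent cells read 8.77, 9.62 and 9.72, between both shRNA groups. The control shRNA arrays thus lay below them and the KBTBD8 shRNA arrays above them.

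ARRDC4, an arrestin relative of TXNIP with a related role in glucose uptake, followed the same course. It read 5.36, 5.50 and 5.68 against 7.89 and 7.99 in pluripotent cells, and 6.64, 6.44 and 6.67 against 5.92 and 6.12 in embryoid bodies. ARRDC4 rose by 2.43 ± 0.11 (adjusted p 6.6e-09) and fell by 0.56 ± 0.11 (adjusted p 0.00529), giving an interaction of -2.99 ± 0.16 (adjusted p 5.3e-08). KLF10, a zinc finger factor that glucose can induce, read 7.11, 7.21 and 7.22 against 8.30 and 8.28 in pluripotent cells, with an interaction of -1.24. KLF11, a close relative, had an interaction of -0.62, which lost its call without KBTBD8 shRNA array 3 of pluripotent cells (-0.50, adjusted p 0.08) or array 1 of embryoid bodies (-0.49, adjusted p 0.077). These 4 were the called members among 16 tested genes of a list on TXNIP, arrestins and the glucose response. All were negative, against 6.12% of all genes. The list's median was -0.064, so the other members did not share the shift.

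The promoter windows of TXNIP and ARRDC4 are shown because these genes moved together and both are known to answer to glucose through E-boxes. They run from 250 bases before to 50 after the start site in RefSeq, build GRCh38.p14, at chr1:145996530-145996829 (minus strand) and chr15:97960453-97960752 (plus strand). Capitals mark an E-box, CACGTG, in ARRDC4 and a pair of partial E-boxes in TXNIP, CACGNG on either side of a spacer of 5 bases of any kind, each searched on both strands. A pair may itself contain an E-box.
TXNIP: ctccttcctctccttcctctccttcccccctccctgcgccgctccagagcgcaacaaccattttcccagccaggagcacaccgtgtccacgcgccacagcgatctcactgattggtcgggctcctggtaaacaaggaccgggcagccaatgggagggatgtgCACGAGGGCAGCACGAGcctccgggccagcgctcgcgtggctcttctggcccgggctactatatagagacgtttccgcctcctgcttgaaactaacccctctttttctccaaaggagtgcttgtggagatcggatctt
ARRDC4: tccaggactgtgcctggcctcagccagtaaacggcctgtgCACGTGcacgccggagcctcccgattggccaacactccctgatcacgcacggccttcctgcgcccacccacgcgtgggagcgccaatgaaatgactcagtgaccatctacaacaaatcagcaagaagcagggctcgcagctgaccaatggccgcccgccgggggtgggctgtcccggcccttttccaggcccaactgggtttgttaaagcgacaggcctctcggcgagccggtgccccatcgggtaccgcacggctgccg
The pair begins at base -88 from the start site of TXNIP, and the E-box at base -210 of ARRDC4. The pair occurred in 20 of 27303 windows (0.0733%), and the E-box in 2030 (7.44%). The search for the pair was added after the TXNIP window had been read. These matches are letters in a window, and no binding was measured.

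Targets of ATF4 and of the unfolded protein response rose in pluripotent cells and did not do so in embryoid bodies. Of 40 tested members 26 had a negative and 1 a positive interaction, against 6.12% and 3.74% of all genes. The median was -0.767, against 0.017 for all genes. In pluripotent cells 31 rose and 1 fell, against 8.43% and 5.58%, and in embryoid bodies 1 fell, against 2.95%. ATF4 is the transcription factor that cells translate more when eIF2 is phosphorylated, as in amino acid shortage or stress of the endoplasmic reticulum. Its own interaction was 0.27 ± 0.12 (adjusted p 0.17). With 1 array left out 22 to 26 members had a negative call, and 2 with all 18 arrays.

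INHBE, a TGF-beta family ligand, read 6.89, 7.44 and 7.26 with the control shRNA and 9.83 and 9.91 with the KBTBD8 shRNA in pluripotent cells. In embryoid bodies it read 5.46, 6.15 and 5.81 against 5.97 and 5.39. The groups were more than 2 log2 units apart in pluripotent cells and overlapped in embryoid bodies, and the interaction was -2.80 ± 0.37 (adjusted p 1.9e-04). SLC7A11, the cystine transporter, read 8.16, 8.36 and 8.33 against 9.99 and 9.86 in pluripotent cells, and 8.47, 8.42 and 8.50 against 7.81 and 7.86 in embryoid bodies. It rose in one state and fell in the other, by 1.65 and 0.63, and its interaction was -2.28 ± 0.18 (adjusted p 1.5e-06). DDIT3, known as CHOP, read 6.26, 6.30 and 6.44 against 8.25 and 8.29, with an interaction of -2.26 ± 0.40 (adjusted p 0.00184). Untransduced pluripotent cells read 6.53, 7.80 and 7.95 for DDIT3, a spread wider than that of either shRNA group. TRIB3, a pseudokinase induced by DDIT3, had an interaction of -2.03.

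The positive member was HSPA5, the main chaperone of the endoplasmic reticulum, also called BiP. It read 11.79, 11.79 and 11.88 against 11.14 and 11.03 in pluripotent cells and 11.63, 11.49 and 11.56 against 11.64 and 11.83 in embryoid bodies. HSPA5 fell by 0.74 ± 0.13 in pluripotent cells (adjusted p 0.00133), and its interaction was 0.91 ± 0.18 (adjusted p 0.00446). So the ATF4 targets and this chaperone moved in opposite directions. HSPA5 and ATF4 were singled out after their values were seen, as were the 4 genes of the next windows.

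CHAC1, which degrades glutathione, ASNS, asparagine synthetase, AARS1, alanyl-tRNA synthetase, and the stress factor ATF3 had interactions of -1.94, -0.97, -0.72 and -0.89. CHAC1 read 7.57, 7.57 and 7.46 against 9.43 and 9.19 in pluripotent cells. ASNS read 9.64, 9.62 and 9.50 against 10.41 and 10.33, and AARS1 10.28, 10.39 and 10.47 against 10.97 and 11.06. In all 3 the groups were apart, but the genes were chosen after these values were seen. The share of all genes so separated was not counted. ATF3 had an adjusted p of 0.049, and of the 10 fits with 1 array left out only that without array 1 of the control shRNA in pluripotent cells kept the call (-1.06, adjusted p 0.019). The other values of ATF3 ranged to -0.79 (adjusted p 0.18, without KBTBD8 shRNA array 3 of pluripotent cells).

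These 4 genes are shown because, of 22 called members of the list with a RefSeq window, they hold the core TGATGNAA of C/EBP-ATF response elements on either strand, in capitals. The windows, again GRCh38.p14, are chr15:40953221-40953520 (plus) for CHAC1, chr7:97872359-97872658 (minus) for ASNS, chr16:70289457-70289756 (minus) for AARS1 and chr1:212565157-212565456 (plus) for ATF3.
CHAC1: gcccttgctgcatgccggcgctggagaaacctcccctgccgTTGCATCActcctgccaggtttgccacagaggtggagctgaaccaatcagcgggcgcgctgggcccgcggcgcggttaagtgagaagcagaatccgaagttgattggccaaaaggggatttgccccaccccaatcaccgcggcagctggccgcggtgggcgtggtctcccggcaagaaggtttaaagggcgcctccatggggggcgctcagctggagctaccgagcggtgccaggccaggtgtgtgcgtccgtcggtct
ASNS: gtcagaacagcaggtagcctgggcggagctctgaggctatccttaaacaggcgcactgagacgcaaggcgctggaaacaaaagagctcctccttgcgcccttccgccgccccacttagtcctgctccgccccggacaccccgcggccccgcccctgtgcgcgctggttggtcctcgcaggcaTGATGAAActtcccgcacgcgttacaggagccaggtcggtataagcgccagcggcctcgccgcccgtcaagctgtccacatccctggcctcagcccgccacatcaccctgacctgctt
AARS1: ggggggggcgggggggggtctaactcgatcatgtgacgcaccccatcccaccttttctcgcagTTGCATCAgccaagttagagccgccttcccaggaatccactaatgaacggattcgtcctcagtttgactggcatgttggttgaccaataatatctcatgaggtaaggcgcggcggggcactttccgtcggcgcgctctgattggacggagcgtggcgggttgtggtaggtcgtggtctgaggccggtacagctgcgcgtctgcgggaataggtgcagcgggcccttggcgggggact
ATF3: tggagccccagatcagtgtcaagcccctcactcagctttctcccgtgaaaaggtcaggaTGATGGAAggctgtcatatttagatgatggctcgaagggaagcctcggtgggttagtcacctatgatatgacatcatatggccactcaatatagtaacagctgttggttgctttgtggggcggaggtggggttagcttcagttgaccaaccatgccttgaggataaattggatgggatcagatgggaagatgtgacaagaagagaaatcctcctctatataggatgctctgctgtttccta
The core begins at base -209 in CHAC1, -68 in ASNS, -187 in AARS1 and -191 in ATF3. It was in 4 of 22 called members (18.2%), in 8 of 34 tested members with a window (23.5%) and in 1003 of all 27303 windows (3.67%). The members with a called interaction thus held it no more often than the list did.

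Sterol synthesis genes made the opposite pattern. Of 21 tested members 14 had a called interaction, all positive, against 3.74% of all genes, with a median of 0.578. In pluripotent cells 12 fell and 1 rose, against 5.58% and 8.43%, and in embryoid bodies 2 rose, against 2.83%. The called members numbered 9 to 13 with 1 array left out and 9 with all 18 arrays. DHCR7, the reductase of the last step to cholesterol, read 9.18, 9.44 and 9.41 with the control shRNA and 8.62 and 8.52 with the KBTBD8 shRNA in pluripotent cells. In embryoid bodies it read 7.90, 7.93 and 7.84 against 8.34 and 8.53. The shRNA groups were apart in both states and in opposite order, although the embryoid body term of 0.54 ± 0.16 was not called (adjusted p 0.0539). How many of all genes were so separated was not counted. DHCR7 fell by 0.77 ± 0.16 in pluripotent cells (adjusted p 0.00394), and its interaction was 1.31 ± 0.22 (adjusted p 0.00133).

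INSIG1, which holds the sterol sensor back in the endoplasmic reticulum, read 8.14, 8.23 and 8.29 against 7.12 and 7.21 in pluripotent cells and 7.98, 8.19 and 8.07 against 8.34 and 8.34 in embryoid bodies. Its interaction was 1.31 ± 0.13 (adjusted p 1.1e-05). Untransduced pluripotent cells read 7.79, 7.57 and 7.77, between the groups. SQLE, squalene epoxidase, had an interaction of 1.10. HMGCS1, the synthase at the pathway's start, was called in both states, with a fall of 0.78 and a rise of 0.31 (adjusted p 0.0362), and its interaction was 1.09 ± 0.12 (adjusted p 2.6e-05). Of 11 tested genes of fatty acid synthesis 0 were called in the interaction by limma, 3 had an unadjusted p under 0.05, and their median was 0.107. The largest were ELOVL6, a fatty acid elongase (0.60, adjusted p 0.0585), and ME1, malic enzyme (-0.44, adjusted p 0.0604). The sterol response element core TCACNCCAC was in 0 of 12 called sterol genes with a window and in 313 of all windows (1.15%), which says only that these letters are not in those windows.

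**Figure D4:**
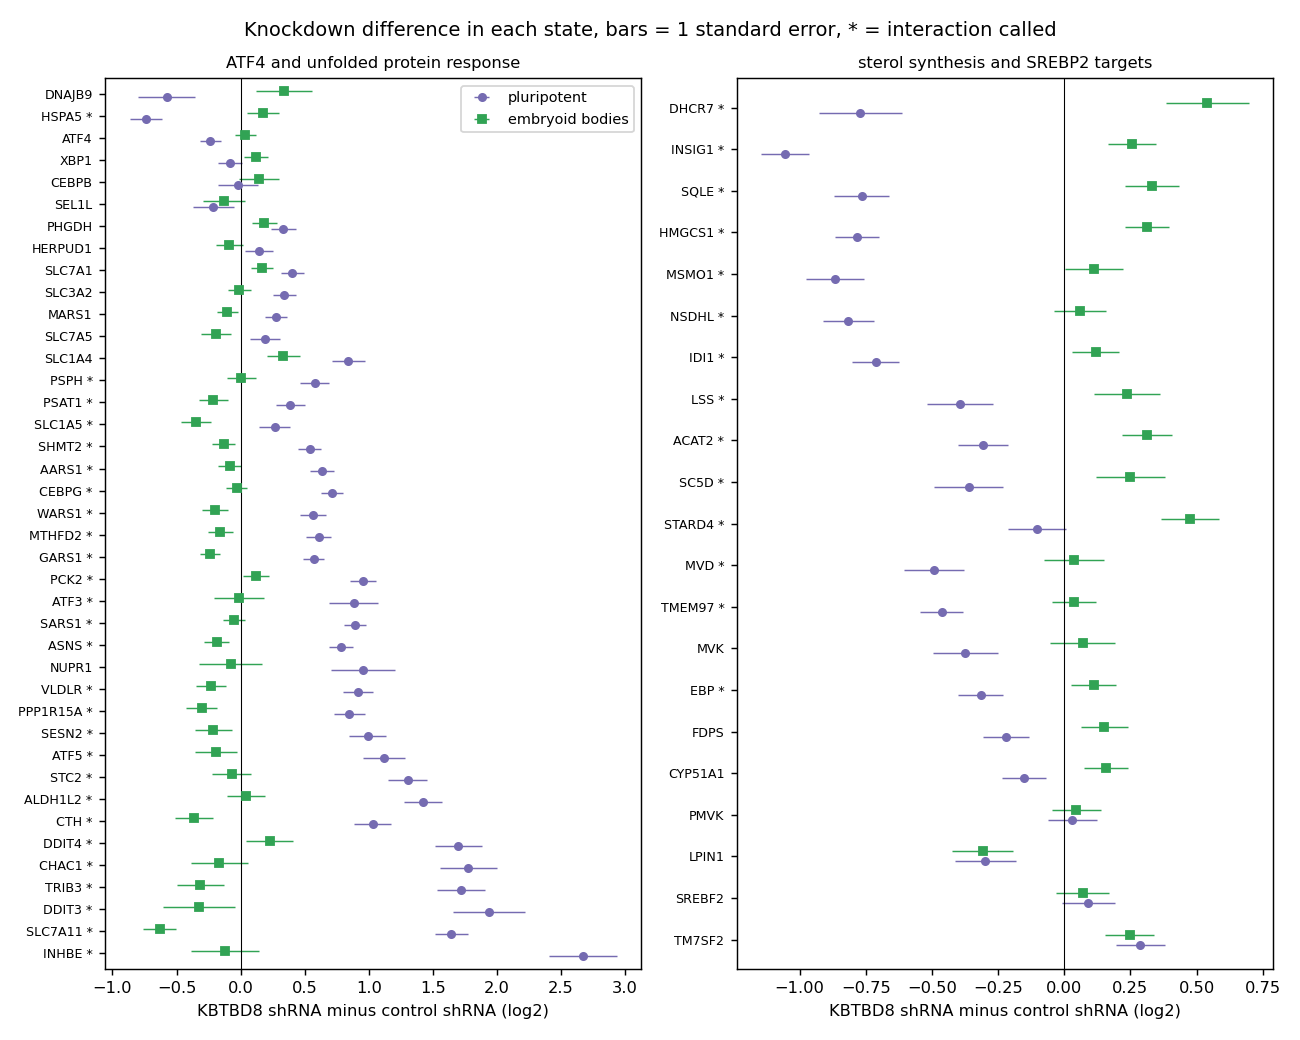
Knockdown difference (log2, horizontal) of every tested member of the ATF4 and unfolded protein list (left) and the sterol list (right), pluripotent cells as circles and embryoid bodies as squares, with bars of 1 standard error and stars on members with a called interaction. On the left circles reach 2.67 for INHBE while squares lie between -0.63 (SLC7A11) and 0.34 (DNAJB9), and on the right the circles of starred members lie left of their squares, down to -1.05 for INSIG1.

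Some histone genes rose and some DNA replication genes fell in pluripotent cells. Of 42 tested replication-dependent histone genes 16 rose and 1 fell in pluripotent cells, against 8.43% and 5.58% of all genes. In embryoid bodies 1 fell, against 2.95%. In the interaction 5 were called, all negative, against 6.12% of all genes, with a median of -0.330. The negative calls numbered 2 to 5 with 1 array left out, 3 with the replicate block, 2 with arrays centred on their medians and 2 with no filter on dim genes. They numbered 11 with an intensity trend in the variance, and with all 18 arrays they were lost. H2BC11 read 5.66, 5.84 and 5.64 against 7.22 and 7.47 in pluripotent cells and had an interaction of -1.80. H2AC6, at readings above 11, had one of -0.75. Histone genes are near-identical copies, so their probe sets may share transcripts. Of 42 tested DNA replication genes 7 fell and 1 rose in pluripotent cells, against 5.58% and 8.43% of all genes. A positive interaction was called for 5, against 3.74% of all genes, with a median of 0.176. RRM2, a subunit of ribonucleotide reductase, read 8.53, 8.79 and 8.77 against 7.31 and 7.45 in pluripotent cells and 8.16, 8.04 and 8.20 against 7.80 and 7.57 in embryoid bodies. It fell in both states, with differences of -1.32 and -0.44, and its interaction was 0.88 ± 0.14 (adjusted p 0.00109). PCNA, the sliding clamp, fell in pluripotent cells by 0.75 with an interaction of 0.73. Of 30 tested mitosis genes 1 was called in the interaction, against 9.87% of all genes.

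Other genes with a pluripotent term included a chemokine and its receptor. CXCL5 read 7.33, 7.78 and 7.48 against 9.63 and 9.70 in pluripotent cells, and its interaction was -2.43 ± 0.23 (adjusted p 8.3e-06). Untransduced pluripotent cells averaged 8.87 for CXCL5, between the shRNA groups and nearer the KBTBD8 shRNA arrays. CXCR2, a receptor of CXCL5, was near background in embryoid bodies and rose in pluripotent cells by 1.76 ± 0.15 (adjusted p 3.3e-06), from 4.06, 4.25 and 4.59 to 6.02 and 6.09. BNC1, a zinc finger protein of epithelia and germ cells, rose by 2.32 and IL20RB, an interleukin receptor chain, by 1.88, both near background in embryoid bodies. CALCRL, the receptor of adrenomedullin, rose by 1.45 in pluripotent cells and fell from near background in embryoid bodies by 0.61. GCNT4, a glycosyltransferase also near background in embryoid bodies, fell in pluripotent cells by 0.93 ± 0.24 (adjusted p 0.0168). VEGFA, the endothelial growth factor, read 7.42, 7.34 and 7.64 against 8.84 and 8.87 in pluripotent cells, with an interaction of -1.32. LDHA, lactate dehydrogenase, went the other way, with a pluripotent fall of 0.73 and an interaction of 0.71. VEGFA and LDHA belong to a list on hypoxia and glycolysis, in which 3 of 25 tested genes were negative and 1 positive. Over all genes the shares were 6.12% and 3.74%.

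Pluripotency genes had 5 positive and 1 negative interaction among 34 tested, against 3.74% and 6.12% of all genes, with a median of 0.170. In embryoid bodies 7 rose, against 2.83% of all genes. In pluripotent cells 3 rose and 4 fell, against 8.43% and 5.58%. GDF3, a TGF-beta ligand of stem cells, read 6.69, 6.67 and 7.06 against 6.01 and 5.95 in pluripotent cells. In embryoid bodies it was near background at 3.98, 3.83 and 3.99 against 4.67 and 4.58, so its pluripotent fall of 0.83 ± 0.19 (adjusted p 0.00751) is the term to read. PRDM14, a repressor that guards pluripotency, fell by 0.78 in pluripotent cells and had an interaction of 1.40 ± 0.27 (adjusted p 0.00351). The negative member was ERVH48-1, a gene of endogenous retroviral origin, which rose by 1.25 in pluripotent cells and had an interaction of -1.49.

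Of 18 tested markers of endoderm and yolk sac 7 fell in pluripotent cells and 8 in embryoid bodies, against 5.58% and 2.95% of all genes. In the interaction 5 were negative and 2 positive, against 6.12% and 3.74%, with a median of -0.093. TTR, the thyroxine carrier, read 6.63, 6.27 and 6.97 against 5.30 and 5.23 in pluripotent cells, and 8.12, 7.83 and 7.97 against 5.49 and 5.25 in embryoid bodies. Its differences were -1.35 and -2.60, and the interaction was -1.25 ± 0.23 (adjusted p 0.0029). AFP, a fetal serum protein, and APOA2, an apolipoprotein, behaved alike, with interactions of -2.04 and -1.46. Untransduced embryoid bodies read 5.12, 5.08 and 4.88 for TTR, as low as the KBTBD8 shRNA arrays. CST1, a cystatin, fell in both states, with differences of -2.92 in pluripotent cells and -1.54 in embryoid bodies. Its interaction of 1.38 (adjusted p 0.0204) lost the call without KBTBD8 shRNA array 1 of pluripotent cells (0.96, adjusted p 0.11) or array 3 of embryoid bodies (1.11, adjusted p 0.1). The mean level of the list over its 18 genes lay between 6.28 and 6.34 with the control shRNA and 5.74 and 5.82 with the KBTBD8 shRNA in pluripotent cells. In embryoid bodies it was 6.57 to 6.58 against 5.77 to 5.88, and its part in the other results was not tested.

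Other cell types that aggregates can hold were checked through marker lists. Of 19 tested mesenchyme and matrix genes 4 were negative and 1 positive, against 6.12% and 3.74% of all genes. Of these 19 genes 6 fell in embryoid bodies, against 2.95%. Their mean level ran from 7.83 to 7.91 with the control shRNA and from 7.56 to 7.57 with the KBTBD8 shRNA in embryoid bodies. LGALS1, a galectin, and COL6A3, a collagen chain, rose in pluripotent cells by 1.11 and 0.69 and had interactions of -1.19 and -1.12. Of 12 mesoderm and heart genes 2 were negative, MEF2C and PDGFRA, the latter a receptor of mesenchyme and crest (-1.26). Of 9 endothelium and blood genes 1 was positive. The trophoblast list had 1 of 6 in each direction, GATA3 and TFAP2C. For these short lists, too, the shares over all genes were 6.12% negative and 3.74% positive. Whether a shift in any of these cell types contributed to the crest or forebrain values was not tested.

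Neuron and NOTCH lists held calls as well. Of 19 tested neuron genes 5 were negative and 2 positive, against 6.12% and 3.74% of all genes. In embryoid bodies 7 of them fell and 1 rose, against 2.95% and 2.83%. DCX, a microtubule protein of young neurons, read 6.67, 6.66 and 6.51 against 5.86 and 5.93 in embryoid bodies, with an interaction of -0.91. SYT1, a synaptic vesicle protein, had an interaction of 0.99. Of 17 NOTCH targets and ligands 4 were called, all negative, against 6.12% of all genes. JAG1, a NOTCH ligand, rose in pluripotent cells by 0.69 ± 0.13 (adjusted p 0.00259) and fell in embryoid bodies by 0.77 ± 0.13 (adjusted p 0.00151). It read 7.39, 7.69 and 7.69 against 8.30 and 8.26 in the former and 8.95, 9.01 and 8.96 against 8.08 and 8.34 in the latter. Its interaction was -1.45. SULF1, which trims heparan sulfate, also rose in pluripotent cells (0.46) and fell in embryoid bodies (1.57 lower), with an interaction of -2.03.

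Transcripts of the machinery around KBTBD8 were counted in the same way. Of 32 tested genes of CUL3 and its adaptors 3 had a positive and 2 a negative interaction, against 3.74% and 6.12% of all genes, and the median was 0.003. KBTBD8 itself was one of them. ENC1, a kelch adaptor of neural tissue, read 6.29, 6.32 and 6.38 against 5.54 and 5.70 in pluripotent cells and had an interaction of 1.28. Without KBTBD8 shRNA array 1 of pluripotent cells ENC1 gave 1.19 (adjusted p 0.05). KLHL13, an adaptor in mitosis, had an interaction of 0.71 (adjusted p 0.0422), which kept its call in 1 of 10 fits with an array left out, the lowest value being 0.43 (adjusted p 0.21) without KBTBD8 shRNA array 1 of pluripotent cells. RHOBTB3, a BTB protein, was negative at -0.88, and KLHL5 at -0.56. Of 58 genes of ribosome biogenesis and RNA polymerase I, the machinery that KBTBD8 is known to act on, 3 were positive, TSR1, NIP7 and RRP9, and each fell in pluripotent cells. The median interaction of the 58 was 0.110. Of 58 cytosolic ribosomal protein genes 2 were positive, with a median of 0.066. Both counts are near the 3.74% over all genes. Called counts were 3 of 27 for p53 targets and 2 of 15 for the interferon response, all negative, and 3 of 14 for BMP targets, 2 of them positive, where 9.87% of all genes were called.

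Many named calls were lost in fits with fewer arrays. Of 132 named genes with a call, 93 kept it in all 10 fits with 1 array left out and 39 lost it in at least 1, and the number lost per fit ran from 13 to 28. Leaving out a KBTBD8 shRNA array leaves 1 array in that group, which is then assumed to vary like the other groups. Such fits lost 24 and 26 calls for arrays 1 and 3 of pluripotent cells and 28 and 24 for arrays 1 and 3 of embryoid bodies, and fits without a control shRNA array lost 13 to 19.

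A group of 17 genes lost the call in 1 to 3 of the 10 fits, among them CST1, KLF11 and ENC1, given above. In the surface ectoderm list GRHL2, an epithelial transcription factor (1.15), lost it without KBTBD8 shRNA array 3 of embryoid bodies (0.96, adjusted p 0.052), and CLDN6, a tight junction protein (1.01), without array 3 of pluripotent cells (0.86, adjusted p 0.06). CRIPTO, the NODAL co-receptor of the pluripotency list (1.14), lost it without array 3 of either state (1.11 and 1.06, highest adjusted p 0.054). ANKRD1, a target of YAP, was near background in embryoid bodies and fell in pluripotent cells by 1.02; its interaction of 1.23 lost the call without KBTBD8 shRNA array 1 of pluripotent cells (0.91) or array 3 of embryoid bodies (0.96, adjusted p 0.07). Among neuron genes TAGLN3 (-0.78) lost it without KBTBD8 shRNA array 3 of either state (-0.69 and -0.65) or control array 3 of embryoid bodies (-0.72). ELAVL4, an RNA-binding protein of neurons (-0.92), lost it without array 1 of either shRNA in embryoid bodies (-0.84 for the control, -0.76 for the KBTBD8 shRNA) or KBTBD8 shRNA array 3 of pluripotent cells (-0.77). FEZF2, a forebrain factor singled out after its values were seen (-1.15), lost it without KBTBD8 shRNA array 1 of either state (-1.02 and -1.07).

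The other genes of that group were members of signalling, matrix, hypoxia and ribosome lists. Without KBTBD8 shRNA array 3 of pluripotent cells the call was lost by PHLDA1 (-0.74 instead of -0.87), SPRED1 (-0.48 instead of -0.50), HEY2, a NOTCH target (-0.58 instead of -0.65), and ZEB2, a repressor of epithelial genes (-0.54 instead of -0.72). Without array 1 it was lost by DLL3, a NOTCH ligand (-0.63 instead of -0.71), and NIP7 (0.42 instead of 0.49). Without KBTBD8 shRNA array 1 of embryoid bodies it was lost by NDRG1, a hypoxia target (-0.83 instead of -0.89), PHLDA1 (-0.77), SPRED1 (-0.50), ZEB2 (-0.65) and NIP7 (0.48). Without array 3 there it was lost by HEY2 (-0.61), SPRED1 (-0.51) and NIP7 (0.50). ZEB2 has 2 probe sets, and with the mean of both its call was lost as well.

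A further 22 genes lost the call in 5 or more of the 10 fits. ORM2, an acute phase protein with one of the 10 highest interactions (1.60, adjusted p 0.0411), lost it in all 10, with values from 1.43 to 1.71. ID2, a BMP target (-0.52), and TSR1 (0.43) did so too. ATF3 and KLHL13 lost it in 9 fits, KLHL5 and RPL10, a ribosomal protein (0.54), in 8. The call was lost in 7 fits by the histones H3C12 (-0.65) and H3C10 (-0.63), SPRY4 (-0.60), BST2, an interferon target (-0.56), CYP26C1 (0.60), ERG, an endothelial factor (0.47), the p53 targets GADD45A (-0.56) and PLK2 (-0.81), the replication genes GINS1 (0.51) and MCM3 (0.48), and SMAD7, a BMP target (0.61). RPS21, a ribosomal protein (0.43), and RRP9 (0.56) lost it in 6, and NGFR (-0.69) and CCNB1, a mitotic cyclin (0.44), in 5. Their signs stayed the same in every such fit. By contrast SESN2, a p53 and ATF4 target (-1.20), HEYL, a NOTCH target (-0.99), MX2, an interferon target (-0.76), EGLN3, an oxygen sensor (-0.75), and TGFBI, a matrix protein (0.78), kept the call in all 10.

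**Figure D5:**
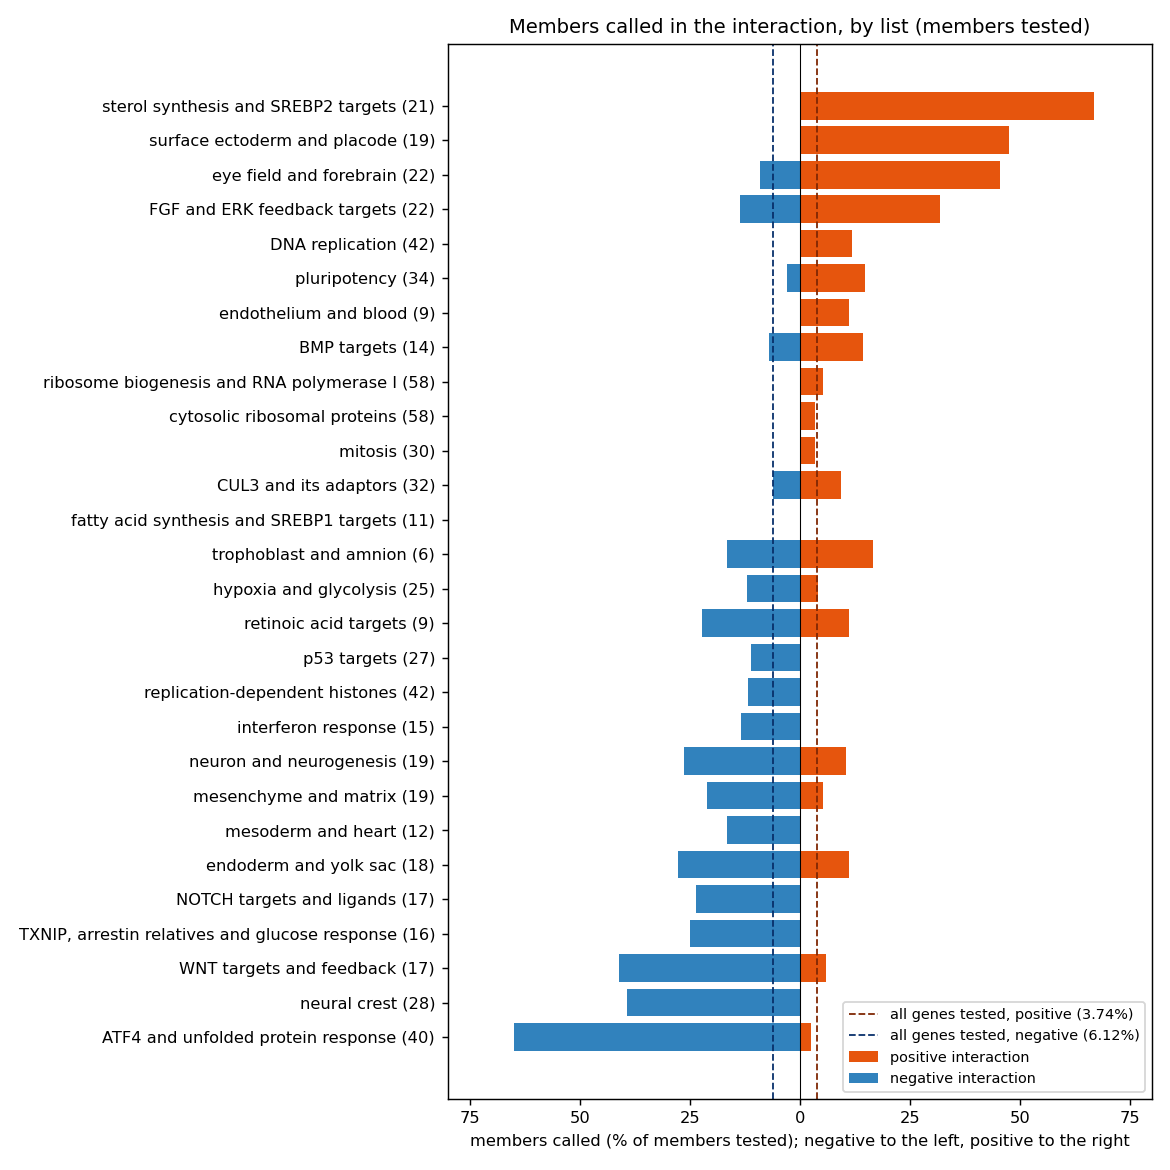
Share of the tested members of 28 gene lists with a called interaction, negative to the left and positive to the right, with the number tested in brackets. Dashed lines mark the share over all 14210 genes, 3.74% positive and 6.12% negative; the sterol list (14 of 21, right) and the ATF4 list (26 of 40, left) reach farthest.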

How the data were processed

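Total RNA was purified with RNeasy columns, labelled by a NuGEN protocol and measured on Affymetrix Human Gene 1.0 ST arrays, per the labels' protocols. The authors deposited log2 intensities from GCRMA (version not given in the sources used here), as the submitters' processing notes state. That the base of the logarithm is 2 was taken from the method and the range of the values, and joint normalization of all 18 arrays is not stated. Raw scans and scan dates were not analysed here, so background correction was not repeated and batches were not tested.

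Of 33297 probe sets 19460 had 1 gene symbol, 1754 several and 12083 none. Symbols came from the platform annotation, brought to RefSeq GRCh38.p14 names (31 had no entry), and the brightest probe set stood for each of 18417 genes. The 14210 genes above the 40th percentile of their array on at least 3 arrays were tested. limma 3.58.1 in R 4.3.3 fitted 1 mean per group to 16 arrays (10 residual degrees of freedom), with Benjamini-Hochberg adjustment within each comparison and a threshold of 0.05. The script was checked on simulated data. Figures were drawn with matplotlib 3.10.9.

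A gene was near background in a state when it lay below the 40th percentile on all 5 shRNA arrays of that state. Wherever shRNA groups of a gene are said to be apart or not to overlap, the share of all genes so separated was not counted. Genes were named by rule: the 4 marker genes and KBTBD8, the 10 highest and 10 lowest interactions, the largest changes among genes near background in 1 state (6 each way where this was pluripotent cells, 3 each way where embryoid bodies), the 5 highest and 5 lowest among genes that changed in opposite directions, and up to 4 called members per list. Other members (HSPA5, ATF4, CHAC1, ASNS, AARS1, ATF3, LGR5, KLHL5, PAX3, NGFR, FOXD3, EDNRB, ERBB3, LMO4, PHLDA1, SPRY4, SPRED1, FEZF2 and those listed only by name) were chosen after their values were seen. Members and lists were chosen with earlier results of these data known. Alternatives covered the arrays fitted, the filter, scaling, probe sets, the variance model, a replicate block and each array left out.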

Additional observations from a re-analysis of the deposited data

Results flagged for a closer look

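Each gene below stands out because the knockdown effects in both states differed by the interaction test itself, in limma with Benjamini-Hochberg adjustment over 14210 genes. Values in brackets are interactions on the log2 scale, negative where the knockdown difference lay higher in pluripotent cells, and 9.87% of all genes tested passed the same test. Genes that fell in embryoid bodies with no call in pluripotent cells were NPR3 (-3.0), ETS1 (-2.87), ITGA4 (-2.63), MEF2C (-2.48), SCUBE2 (-2.44), SNAI2 (-2.43), NR2F1 (-2.40), NRP2 (-2.40), KRTAP21-1 (-2.33), SCRG1 (-2.32), WLS (-1.95), RFX4 (-1.90), TFAP2B (-1.83), SOX10 (-1.60), AXIN2 (-1.50), DACT1 (-1.45), FOXD3 (-1.32), PDGFRA (-1.26), EDNRB (-1.16), STRA6 (-1.14), ERBB3 (-1.05), HEYL (-0.99), ELAVL4 (-0.92), DCX (-0.91), NDRG1 (-0.89), RHOBTB3 (-0.88), PLK2 (-0.81), EGLN3 (-0.75) and NGFR (-0.69). Those that rose in embryoid bodies with no call in pluripotent cells were MCM3 (0.48), CYP26C1 (0.60), SMAD7 (0.61), SYT1 (0.99), LGR5 (1.05), CRIPTO (1.14), GRHL2 (1.15), GATA3 (1.41), IL17RD (1.42), DUSP6 (1.58), FGF8 (1.67), LHX2 (1.69), ADAM28 (1.82), PAX8 (1.86), SEMA6D (1.87), VAX1 (1.88), FRZB (1.89), GAD2 (1.90), MECOM (2.01), HESX1 (2.34), HPGD (2.35) and SIX3 (3.27). A rise in pluripotent cells with no call in embryoid bodies was found for TXNIP (-4.03), INHBE (-2.80), BNC1 (-2.66), CXCL5 (-2.43), DDIT3 (-2.26), TRIB3 (-2.03), CHAC1 (-1.94), IL20RB (-1.90), CXCR2 (-1.81), H2BC11 (-1.80), TFAP2C (-1.57), ERVH48-1 (-1.49), VEGFA (-1.32), KLF10 (-1.24), SESN2 (-1.20), LGALS1 (-1.19), COL6A3 (-1.12), ASNS (-0.97), ATF3 (-0.89), PHLDA1 (-0.87), MX2 (-0.76), H2AC6 (-0.75), LMO4 (-0.74), AARS1 (-0.72), DLL3 (-0.71), H3C12 (-0.65), HEY2 (-0.65), H3C10 (-0.63), KLF11 (-0.62), SPRY4 (-0.60), BST2 (-0.56), GADD45A (-0.56), ID2 (-0.52) and SPRED1 (-0.50). A fall in pluripotent cells with no call in embryoid bodies was found for TSR1 (0.43), CCNB1 (0.44), NIP7 (0.49), GINS1 (0.51), RPL10 (0.54), RRP9 (0.56), KLHL13 (0.71), LDHA (0.71), PCNA (0.73), TGFBI (0.78), HSPA5 (0.91), CLDN6 (1.01), SQLE (1.10), ANKRD1 (1.23), ENC1 (1.28), DHCR7 (1.31), INSIG1 (1.31), PRDM14 (1.40), GCNT4 (1.59) and KBTBD8 (1.80). Genes that rose in pluripotent cells and fell in embryoid bodies were NRIP3 (-3.08), ARRDC4 (-2.99), SLC7A11 (-2.28), CALCRL (-2.06), SULF1 (-2.03) and JAG1 (-1.45). The opposite change was seen for HMGCS1 (1.09), ERP27 (1.42), GDF3 (1.52), FZD5 (2.49), SLITRK1 (2.58) and DLX5 (2.75). Falls of unequal size in both states were seen for AFP (-2.04), DKK1 (-1.57), PAX3 (-1.52), APOA2 (-1.46), TTR (-1.25), TAGLN3 (-0.78), ZEB2 (-0.72), RRM2 (0.88) and CST1 (1.38), and rises of unequal size for ETV5 (1.16). Neither knockdown alone was called for FEZF2 (-1.15), KLHL5 (-0.56), RPS21 (0.43), ERG (0.47) and ORM2 (1.60). Of these 132 genes, 39 lost the call when 1 array was left out.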

How the results depend on the processing

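The 2 arrays left out decide most. With all 18 arrays the interaction was called for 521 genes, the knockdown in pluripotent cells for 729 instead of 1991 and that in embryoid bodies for 352 instead of 821. Of 132 named genes with a call, 75 lost it with all 18 arrays and 41 kept it under every alternative. In that fit 18 named genes changed sign: SIX3 (-0.04), LHX2 (-0.25), DLX5 (-0.73), GATA3 (-0.07), FRZB (-0.69), SEMA6D (-0.05), CXCL5 (0.11), ERVH48-1 (1.28), LDHA (-0.39), ENC1 (-1.58), ASNS (0.54), AARS1 (0.36), PHLDA1 (0.39), SPRY4 (0.88), CYP26C1 (-0.01), HEY2 (0.97), ME1 (0.67) and MX2 (0.16). ME1, among these, had no call. No gene among these 132 changed sign under the other 20 alternatives. Leaving out 1 array in turn gave 738 to 1211 interactions, lowest without KBTBD8 shRNA array 3 of pluripotent cells and 877 without array 1 of embryoid bodies. The pluripotent knockdown ranged from 724 to 1947 genes, and the embryoid body knockdown from 451 to 819, lowest without KBTBD8 shRNA array 3 of each state. In these fits 93 of the 132 genes kept the call throughout and 39 did not. Same-numbered arrays of the KBTBD8 shRNA groups and the pluripotent control had deviations correlated from 0.316 to 0.433, but those with the embryoid body control from -0.175 to 0.049, so the numbers were not taken as pairs. The replicate block called 1402 interactions, as did the fit without it, and 1308 genes were shared. It ended the calls of ORM2, ATF3, KLHL13, KLHL5, H3C12, H3C10, ID2, PLK2 and CYP26C1. Centring arrays on their medians gave 1013 interactions and array weights 1865, and no scaling moved the share of positive calls by 10 points. Other fits did: the share of rises among called genes went from 60.2% to 70.9% in pluripotent cells without KBTBD8 shRNA array 1, and from 49% to 38.1% in embryoid bodies without array 3. In pluripotent cells, with all 18 arrays, 326 rose and 403 fell. Called genes near background in 1 state numbered 26 with the line at the 30th percentile and 220 at the 50th, instead of 103. The number of arrays limits every error, and intensities carry no count of molecules.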
